A study of Homo sapiens and Mus musculus with 56 samples.

Results

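The 10 genes DOT1L, MLLT10, MLLT3, MLLT1, MLLT6, AFF1, AFF4, ELL, CDK9 and CCNT1, which encode a histone methyltransferase, its partners and the super elongation complex, were followed on every probe set that carries one of these symbols alone. This gave 38 of 54675 probe sets on the human arrays and 26 of 45101 on the mouse arrays. On the human arrays MLLT10 and AFF4 had 8 probe sets each, DOT1L, MLLT3, MLLT6, AFF1, ELL and CDK9 had 3 each, and MLLT1 and CCNT1 had 2 each. RNA of 5 leukaemia cell models was hybridized to 56 Affymetrix arrays, 44 human and 12 mouse, in 20 groups. Each model was treated with EPZ004777, an inhibitor of DOT1L, with MI-2-2, an inhibitor of the binding of menin to KMT2A, with both compounds in combination, or with the solvent DMSO. For RS4;11, SEM and REH the treatment lasted 6 days, with EPZ004777 at 3 µM and MI-2-2 at 10 µM. MOLM-13 and mouse MLL-AF9 cells received 3 µM of either compound for 4 days. The combination was taken to hold each compound at its single dose. Groups held 3 arrays, except RS4;11 DMSO and the SEM combination, MI-2-2 and DMSO groups with 2 each. RS4;11 and SEM are B-precursor lines that carry the KMT2A-AFF1 fusion, REH is a B-precursor line that carries no KMT2A fusion, and MOLM-13 is a myeloid line with a KMT2A-MLLT3 fusion. Each human model is 1 line, and the mouse cells were transformed with MLL-AF9, the same fusion as in MOLM-13 under its older name.

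DOT1L methylates a lysine in the core of histone H3 on the bodies of transcribed genes. MLLT10 and MLLT6 are its cofactors, and MLLT1 and MLLT3 carry a YEATS domain that binds acylated histones and are found either with DOT1L or in the super elongation complex. In that complex AFF1 or AFF4 is the scaffold, ELL speeds up RNA polymerase II, and CDK9 with its cyclin CCNT1 forms the kinase P-TEFb, which releases paused polymerase. Several of these genes, among them AFF1, MLLT3, MLLT1, MLLT10 and ELL, are fusion partners of KMT2A in leukaemia. A fusion keeps the 5′ part of KMT2A and the 3′ part of the partner, so AFF1 probe sets in RS4;11 and SEM, and MLLT3 probe sets in MOLM-13, may read the fusion transcript as well as the normal one, and the values do not tell them apart.

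The promoters of MLLT10, MLLT3 and AFF1 are shown as examples of genes whose transcripts moved on more than 1 probe set or in more than 1 line. MLLT6, AFF4, CDK9 and CCNT1 also did so, and their promoters are not shown. Each is 300 bases of RefSeq sequence (GRCh38.p14) around the first listed start, written 5′ to 3′. Capitals mark GGGCGG, the GC box, and CCAAT, each on either strand.
MLLT10, chr10:21533982-21534281, plus strand: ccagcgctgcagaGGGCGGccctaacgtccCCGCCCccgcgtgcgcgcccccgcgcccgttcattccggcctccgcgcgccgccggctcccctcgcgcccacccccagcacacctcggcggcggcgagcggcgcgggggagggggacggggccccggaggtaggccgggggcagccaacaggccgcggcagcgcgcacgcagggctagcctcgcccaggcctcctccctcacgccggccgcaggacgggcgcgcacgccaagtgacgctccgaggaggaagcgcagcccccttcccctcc
MLLT3, chr9:20622450-20622749, minus strand: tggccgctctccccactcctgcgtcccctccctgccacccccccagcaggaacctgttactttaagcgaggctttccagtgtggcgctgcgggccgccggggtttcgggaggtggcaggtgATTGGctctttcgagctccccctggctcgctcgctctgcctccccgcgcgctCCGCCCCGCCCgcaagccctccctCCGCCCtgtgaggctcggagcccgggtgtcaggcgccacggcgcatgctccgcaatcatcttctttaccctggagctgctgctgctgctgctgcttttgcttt
AFF1, chr4:86934761-86935060, plus strand: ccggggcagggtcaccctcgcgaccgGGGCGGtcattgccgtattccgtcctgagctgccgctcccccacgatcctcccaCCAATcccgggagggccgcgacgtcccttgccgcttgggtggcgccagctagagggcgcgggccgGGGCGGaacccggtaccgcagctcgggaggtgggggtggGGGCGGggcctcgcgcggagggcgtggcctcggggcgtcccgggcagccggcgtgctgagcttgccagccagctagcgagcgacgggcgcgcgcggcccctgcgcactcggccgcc
The MLLT10 window held 2 GC boxes, no CCAAT and 80.3% G and C. The MLLT3 window held 3 GC boxes, of which a pair overlaps by 1 base, 1 CCAAT and 68.0% G and C. The AFF1 window held 3 GC boxes, 1 CCAAT and 77.7% G and C. Over 35116 RefSeq promoters of the same length, 45.0% held a GC box and 34.6% held CCAAT on either strand, and the median share of G and C was 58.7%. MLLT10 and AFF1 have 2 entries each, of which the first is shown. The second MLLT10 window held 1 GC box, 1 CCAAT and 56.3% G and C. The second AFF1 window held 1 GC box, 1 CCAAT and 72.7% G and C. A promoter entry was found for 9 of the 10 genes.

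The values are log2 signals, a difference is the treated mean minus the DMSO mean, and the number after ± is its standard error unless SD is written. A probe set was tested when at least 2 arrays of the cell model put it higher than their own percentile 40, and calls rest on an adjusted p below 0.05 from limma with Benjamini-Hochberg adjustment over all probe sets tested. A name ending in _s_at, _x_at or _a_at marks a probe set that may bind other transcripts too. Of the 38 human probe sets, 30 were tested in RS4;11, 32 in SEM, 32 in REH and 34 in MOLM-13, and 23 of the 26 mouse probe sets were tested. No MLLT3 probe set passed in RS4;11. Since RNA of whole cultures was measured, fewer cells of one kind and less RNA per cell cannot be told apart. B lineage markers were above the same percentile in DMSO cells for 6 of 6 genes in RS4;11 and SEM and 5 of 6 in REH. The myeloid markers were above it for 6 of 6 in MOLM-13 and 5 of 5 in the mouse cells, and also for 4 of 6 in RS4;11, 4 of 6 in SEM and 3 of 6 in REH. T cell markers were above it for 0 of 4 genes in the 3 lymphoid lines and for 1 of 4 in MOLM-13 and in the mouse model, where B lineage markers were above it for 3 of 6 each. Megakaryocyte markers were above it for 2 of 4 in each lymphoid line, 3 of 4 in MOLM-13 and 3 of 3 in the mouse model, and erythroid markers for 0 of 3 in RS4;11, 1 of 3 in SEM, 2 of 3 in REH and MOLM-13 and 1 of 2 in the mouse model. Array medians lay at 6.18 to 6.25 in MOLM-13 and at 5.54 to 5.66 in the other human lines, and which arrays were normalized together is not stated. In the mouse combination the 3′ minus 5′ signal of Gapdh was 0.597, 1.504 and 2.047 on replicates 1, 2 and 3, against 0.44 to 0.654 on the 9 other mouse arrays. Their mean correlation with the other arrays of the group was 0.962, 0.978 and 0.977, against 0.995 to 0.997 on the 9 others. Without replicates 2 and 3 the spread of 1 combination array cannot be estimated, so only effect sizes are given for that setting. In REH the 3′ minus 5′ signal of actin reached 3.107 and 3.646 on DMSO replicates 1 and 3, against 2.363 to 2.867 on the other 10 arrays. In SEM it was 1.83 to 1.93 on combination and MI-2-2 arrays, against 2.32 to 2.48 on EPZ004777 and DMSO arrays.

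The calls among the 10 genes stand beside the share called over all probe sets, and these shares were not tested against each other. In the combination against DMSO, 8 of 30 probe sets were called in RS4;11 (2 higher and 6 lower, with 20.2% of all probe sets called), 9 of 32 in SEM (0 higher and 9 lower, with 23.5% of all called), 1 of 32 in REH (lower, with 4.1% of all called) and 14 of 34 in MOLM-13 (3 higher and 11 lower, with 42% of all called). Mouse cells with the combination had 14 of 23 called (6 higher and 8 lower, with 62.4% of all called). With MI-2-2, 4 of 32 were called in SEM, all lower (11.6% of all), and 5 of 34 in MOLM-13, 2 higher and 3 lower (13.7% of all). With EPZ004777, 4 of 32 were called in SEM, all lower (6.27% of all), and 6 of 34 in MOLM-13, 3 higher and 3 lower (20.2% of all). In limma 0 were called in RS4;11 with MI-2-2 (12.1% of all, 5 at an unadjusted p under 0.05) or with EPZ004777 (5.23% of all, 8 unadjusted). Likewise 0 were called in REH with MI-2-2 (0.483% of all, 3 unadjusted) or EPZ004777 (2.26% of all, 3 unadjusted), and 0 in the mouse cells with MI-2-2 (3% of all, 1 unadjusted) or EPZ004777 (3.21% of all, 1 unadjusted). Several counts rested on single arrays. The RS4;11 count of 8 was 1 to 5 without combination replicate 1 or 2, EPZ004777 replicate 2 or 3, MI-2-2 replicate 3 or either DMSO array. In SEM the combination count of 9 was 3 to 5 without combination replicate 3 or either DMSO array, the MI-2-2 count of 4 was 0 or 1 without any 1 MI-2-2 or DMSO array, and the EPZ004777 count of 4 was 1 or 2 without EPZ004777 replicate 2 or 3 or any 1 MI-2-2 or DMSO array. The MOLM-13 count of 5 with MI-2-2 was 0 to 3 without MI-2-2 replicate 1 or 2 or any 1 DMSO array. The REH combination count of 1 was 0 without combination replicate 2 and 2 without DMSO replicate 3. Of the counts of 0, RS4;11 with MI-2-2 was 2 without combination replicate 1, RS4;11 with EPZ004777 was 1 without EPZ004777 replicate 1 or MI-2-2 replicate 1, and the mouse cells with MI-2-2 gave 1 without combination replicate 1.

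The median difference of the tested probe sets in the combination was -0.13 in RS4;11, -0.22 in SEM, -0.08 in REH, -0.14 in MOLM-13 and -0.20 in the mouse model, beside -0.03, -0.03, -0.01, 0.00 and -0.09 over all probe sets tested.

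The combination was also set against each single compound. Against EPZ004777 alone 2 of 30 probe sets were called in RS4;11, both of MLLT10 and lower (14.9% of all), 3 of 32 in SEM, with MLLT10 lower on 2 and AFF1 higher on 1 (18.9% of all), and 0 of 32 in REH (0.0202% of all, 5 at an unadjusted p under 0.05, limma). In MOLM-13 there were 8 of 34 (2 higher and 6 lower, with 25.9% of all called), and in the mouse cells 17 of 23 (7 higher and 10 lower, with 61.4% of all called). Against MI-2-2 alone limma called 0 in RS4;11 (6.37% of all, 9 unadjusted), 0 in SEM (2.65% of all, 1 unadjusted) and 0 in REH (0.861% of all, 2 unadjusted). MOLM-13 had 9 of 34 there (2 higher and 7 lower, with 31.8% of all called) and the mouse cells 14 of 23 (6 higher and 8 lower, with 60.9% of all called). The SEM count of 3 was 1 without combination replicate 1 or 3, the MOLM-13 count of 8 was 5 without combination replicate 1 or 2 or EPZ004777 replicate 2, and the RS4;11 count of 0 against MI-2-2 was 1 without combination replicate 1 or MI-2-2 replicate 3.

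**Figure D1:**
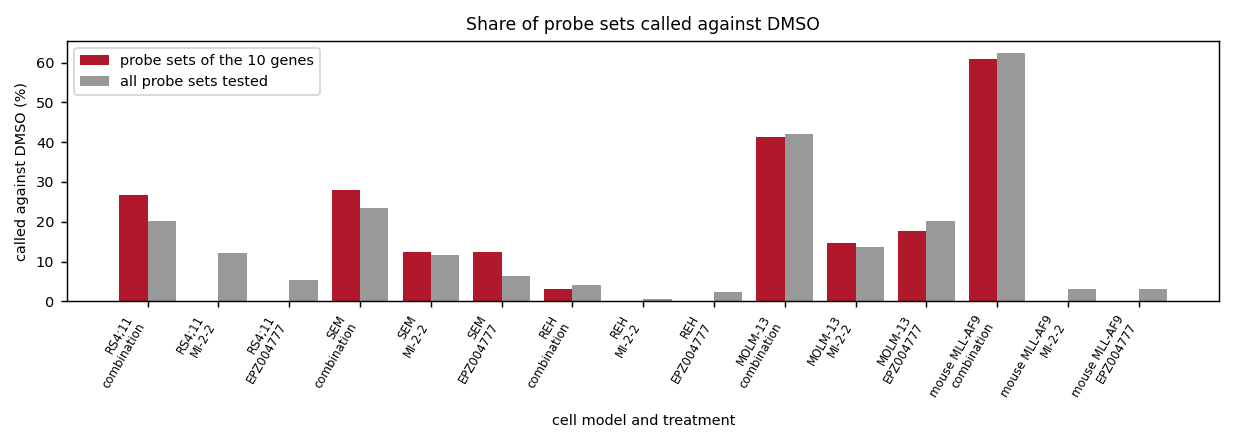
Percent of probe sets called against DMSO (vertical axis) for each cell model and treatment (horizontal axis), for the probe sets of the 10 genes (red) and for all probe sets tested (grey). In the MOLM-13 combination the bars stand at 41.2% and 42%, and in the mouse combination at 60.9% and 62.4%.

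**Figure D2:**
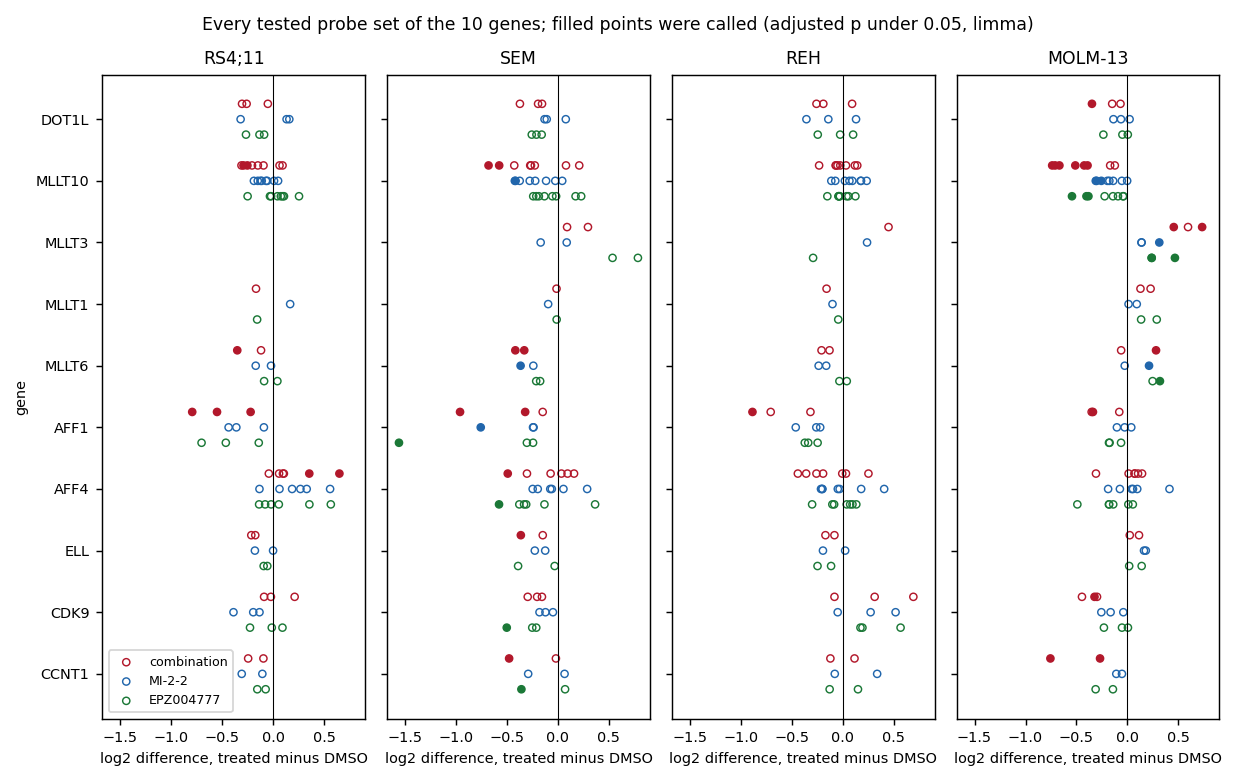
Log2 difference of each treatment from DMSO (horizontal axis) for every tested human probe set of the 10 genes (vertical axis), 1 panel per line, with the combination in red, MI-2-2 in blue and EPZ004777 in green. Filled points were called. MLLT10 lies below 0 on all 8 probe sets in MOLM-13 with the combination, MLLT3 lies above 0 there, and AFF1 reaches -1.56 in SEM with EPZ004777.

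DOT1L itself, the target of EPZ004777, was not called against DMSO on any of its 3 probe sets in RS4;11, SEM or REH. On probe set 226201_at the DOT1L signal in RS4;11 was 8.28, 8.01 and 8.24 with the combination, 8.63, 8.85 and 8.37 with MI-2-2 and 8.47, 8.34 and 8.24 with EPZ004777, against 8.45 and 8.52 with DMSO. In SEM the same probe set gave 7.90 and 7.94 with the combination, 8.12 and 8.24 with MI-2-2 and 8.32, 7.75 and 8.04 with EPZ004777, against 8.28 and 8.31 with DMSO. The combination arrays of both lines lay below their DMSO arrays, but the differences of -0.31 ± 0.13 and -0.37 ± 0.16 were not called (adjusted p = 0.138 and 0.144, limma). In REH, DOT1L 226201_at gave 8.26 ± 0.22 with the combination, 8.16 ± 0.23 with MI-2-2, 8.49 ± 0.33 with EPZ004777 and 8.51 ± 0.38 with DMSO (SD, n = 3 each), and all groups overlapped. With the combination, MI-2-2 and EPZ004777, 214865_at gave -0.26, -0.32 and -0.27 in RS4;11 and -0.19, -0.13 and -0.16 in SEM. In REH it gave 0.09, 0.13 and 0.10. The mean effect in RS4;11 and SEM, less that in REH, was not called there (adjusted p = 0.108, 0.0924 and 0.219, limma). On 231297_at the differences in these 3 lines lay between -0.24 and 0.16.

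The DOT1L call in a human line was on 231297_at in MOLM-13 with the combination. This probe set gave 7.99, 7.85 and 7.94 with the combination, 7.84, 8.21 and 8.36 with MI-2-2 and 8.17, 8.23 and 8.27 with EPZ004777, against 8.47, 8.27 and 8.09 with DMSO. The combination arrays lay below all DMSO arrays, while the MI-2-2 and EPZ004777 arrays overlapped with them. The difference of -0.35 ± 0.13 had an adjusted p of 0.0495 in limma. It was not called without any 1 of the 3 combination arrays, the 3 EPZ004777 arrays, MI-2-2 replicate 2 or DMSO replicates 1 or 2 (-0.38 to -0.25, adjusted p 0.0616 to 0.172). The other DOT1L probe sets in MOLM-13 gave -0.15 ± 0.11 and -0.07 ± 0.08 with the combination.

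In the mouse cells Dot1l was lower with the combination on both of its probe sets. Dot1l 1439488_at gave 9.99, 10.32 and 10.36 with the combination, 10.63, 10.72 and 10.61 with MI-2-2 and 10.61, 10.59 and 10.57 with EPZ004777, against 10.61, 10.67 and 10.61 with DMSO. Dot1l 1457268_at gave 10.83, 10.14 and 9.55 with the combination, 11.34, 11.27 and 11.31 with MI-2-2 and 11.38, 11.39 and 11.17 with EPZ004777, against 11.23, 11.12 and 11.18 with DMSO. All combination arrays lay below all others on both probe sets. The differences from DMSO were -0.41 ± 0.11 and -1.0 ± 0.25 (adjusted p = 0.00732 and 0.00543, limma). Against the single compounds the combination was lower too, by -0.37 and -1.14 relative to EPZ004777 and by -0.43 and -1.13 relative to MI-2-2. Replicates 2 and 3, which had the highest Gapdh 3′ minus 5′ signal, were the lowest on 1457268_at and the highest of the 3 on 1439488_at. With replicates 2 and 3 left out the differences were -0.64 on 1439488_at and -0.34 on 1457268_at. They rest on combination replicate 1 alone, so whether the calls hold there cannot be decided.

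MLLT10, the cofactor of DOT1L also named AF10, fell in MOLM-13 on most of its 8 probe sets. With the combination 6 of 8 MLLT10 probe sets were called lower there (42% of all called, 21.9% of all lower) and all 8 lay below 0, between -0.74 and -0.12. On 225992_at the signal was 10.45, 10.54 and 10.50 with the combination, 10.87, 10.91 and 11.07 with MI-2-2 and 10.78, 10.82 and 10.82 with EPZ004777, against 11.25, 11.09 and 11.28 with DMSO. On 205408_at it was 8.35, 8.35 and 8.37 with the combination, 8.84, 8.69 and 8.82 with MI-2-2 and 8.68, 8.65 and 8.80 with EPZ004777, against 9.15, 8.95 and 9.19 with DMSO. On both probe sets every treated array lay below every DMSO array, and the combination arrays lay below all arrays of the single compounds.

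For MLLT10 in MOLM-13, the combination differed from DMSO by -0.71 ± 0.07 on 225992_at (adjusted p = 1.15e-05, limma) and by -0.74 ± 0.07 on 205408_at (adjusted p = 1.58e-05). The other 4 called probe sets gave -0.67 on 1563321_s_at, -0.51 on 216503_s_at, -0.42 on 230122_at and -0.39 on 216509_x_at. These 6 calls held under all 15 alternatives. EPZ004777 alone lowered MLLT10 by -0.40 ± 0.07 on 225992_at, by -0.38 ± 0.07 on 205408_at and by -0.54 ± 0.10 on 1563321_s_at, and these 3 calls also held under all 15 alternatives. MI-2-2 alone lowered it by -0.26 ± 0.07 on 225992_at, -0.31 ± 0.07 on 205408_at and -0.30 ± 0.07 on 230122_at. All 3 of these were lost without MI-2-2 replicate 2 or DMSO replicate 1 or 3, and 225992_at also without MI-2-2 replicate 1 (-0.29 to -0.22, adjusted p 0.0534 to 0.104). On 225992_at the combination lay below EPZ004777 by -0.31 ± 0.07 and below MI-2-2 by -0.45 ± 0.07 (adjusted p = 0.00706 and 0.000483, limma).

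In SEM, 2 of 8 MLLT10 probe sets were called, both lower, with the combination (23.5% of all called) and with MI-2-2 (11.6% of all called). Of the other 6, the combination differences lay between -0.43 and 0.21, with 216509_x_at and 216506_x_at above 0. On 205408_at the SEM signal was 6.63 and 6.70 with the combination, 7.02 and 6.83 with MI-2-2 and 7.20, 7.13 and 7.07 with EPZ004777, against 7.35 and 7.34 with DMSO. On 225992_at it was 9.45 and 9.41 with the combination, 9.66 and 9.52 with MI-2-2 and 9.89, 9.94 and 9.79 with EPZ004777, against 9.96 and 10.05 with DMSO. No treated SEM array reached the DMSO arrays on either probe set. The combination differed from DMSO by -0.68 ± 0.09 and -0.58 ± 0.09 (adjusted p = 0.00177 and 0.00342, limma), and from EPZ004777 by -0.47 and -0.44. The call against EPZ004777 was lost on 205408_at without combination replicate 1 and on 225992_at without combination replicate 3 (adjusted p = 0.0578 and 0.0640). MI-2-2 differed from DMSO by -0.42 ± 0.09 on each (adjusted p = 0.0251 and 0.0245). Neither of these calls held under the replicate block. The MI-2-2 calls were lost without MI-2-2 replicate 3 or either DMSO array, and on 225992_at also without MI-2-2 replicate 1 (-0.49 to -0.33, adjusted p 0.0508 to 0.140). With the actin 3′ minus 5′ signal as a covariate the combination differences were -0.77 and -0.87 and not called (adjusted p = 0.867 and 0.828). That signal differs between the same SEM groups, and its part in these falls cannot be told apart from that of the treatment.

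In RS4;11, MLLT10 225992_at gave 9.71, 9.72 and 9.78 with the combination, 9.85, 9.90 and 9.88 with MI-2-2 and 10.17, 10.08 and 10.04 with EPZ004777, against 10.05 and 9.93 with DMSO. The combination arrays were the lowest, and EPZ004777 overlapped with DMSO. The combination lay below EPZ004777 by -0.36 ± 0.06 (adjusted p = 0.00386, limma) and below DMSO by -0.25 ± 0.07 (adjusted p = 0.0319). The call against DMSO was lost without combination replicate 1 or 2, EPZ004777 replicate 2, MI-2-2 replicate 3 or either DMSO array (-0.32 to -0.19, adjusted p 0.0501 to 0.218). MLLT10 230122_at was called too in RS4;11, by -0.29 ± 0.09 (adjusted p = 0.0485), and that call held without combination replicate 1 but not without any other array (-0.30 to -0.21, adjusted p 0.0567 to 0.174). In REH 0 of the 8 MLLT10 probe sets were called for any treatment, and their differences lay between -0.23 and 0.24. Of all probe sets 4.1%, 0.483% and 2.26% were called there with the combination, MI-2-2 and EPZ004777. The combination effect averaged over RS4;11 and SEM, less that in REH, was -0.44 ± 0.17 on 205408_at and -0.18 ± 0.10 on 225992_at (adjusted p = 0.0748 and 0.232, limma), so a difference between the lines was not called.

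**Figure D3:**
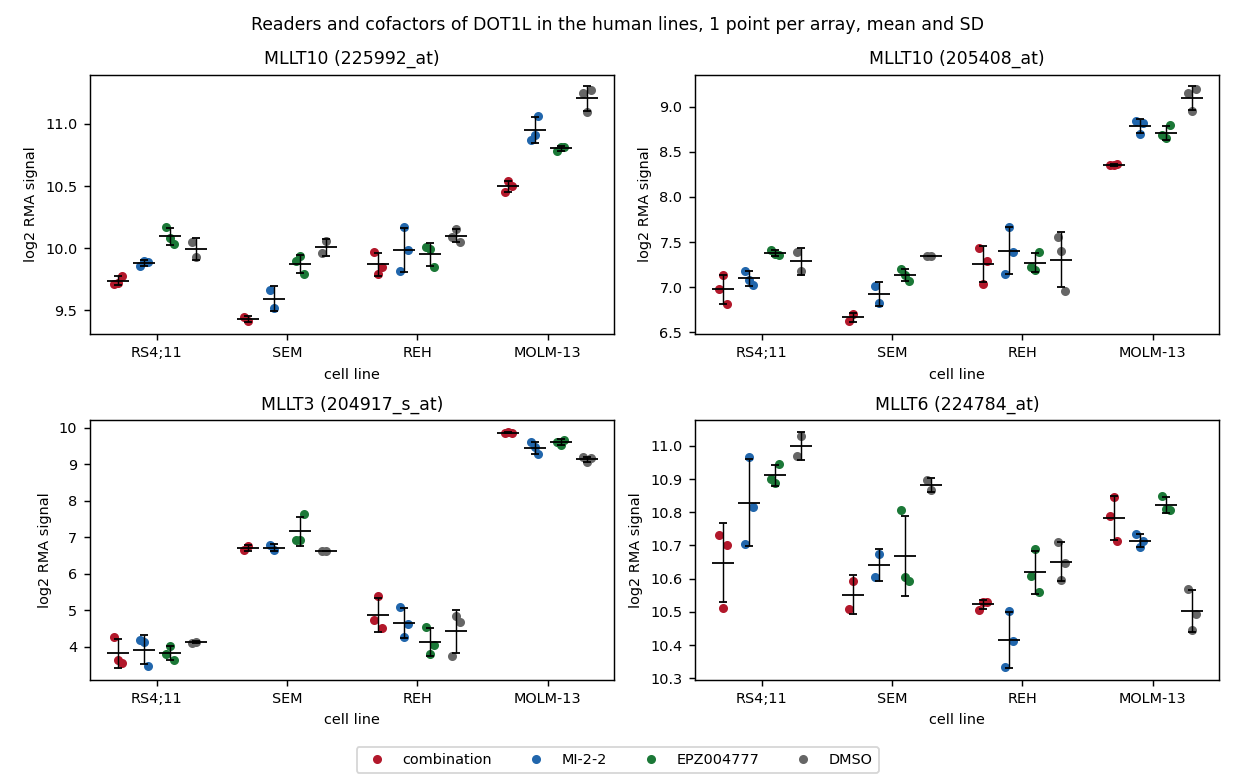
Log2 RMA signal (vertical axes) of MLLT10, MLLT3 and MLLT6 probe sets by cell line (horizontal axes), 1 point per array, with the mean and SD of each group. Within each line the groups run from the combination to DMSO. In MOLM-13 the MLLT10 arrays with the combination (10.45 to 10.54 on 225992_at) lie below DMSO (11.09 to 11.28), while those of MLLT3 (9.86 to 9.88) lie above DMSO (9.06 to 9.19).

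MLLT3, the YEATS domain gene also named AF9, rose in MOLM-13. Probe set 204917_s_at gave 9.86, 9.88 and 9.86 with the combination, 9.60, 9.47 and 9.27 with MI-2-2 and 9.61, 9.52 and 9.68 with EPZ004777, against 9.19, 9.06 and 9.16 with DMSO. Every treated array lay above every DMSO array, and the combination arrays were the highest. The rise of MLLT3 in MOLM-13 was 0.73 ± 0.08 with the combination (adjusted p = 3.30e-05, limma), 0.31 ± 0.08 with MI-2-2 (adjusted p = 0.0274) and 0.47 ± 0.08 with EPZ004777 (adjusted p = 0.00246). The combination lay above EPZ004777 by 0.27 ± 0.08 and above MI-2-2 by 0.42 ± 0.08 (adjusted p = 0.0326 and 0.00238). The call against EPZ004777 was lost without the filter, without any 1 combination array and without EPZ004777 replicate 1 or 2 (0.23 to 0.27, adjusted p 0.0592 to 0.119), and that against MI-2-2 held under all 15 alternatives. On 204918_s_at the rise was 0.45 ± 0.07 with the combination and 0.24 ± 0.07 with EPZ004777 (adjusted p = 0.000559 and 0.0462), and the 0.14 ± 0.07 with MI-2-2 was not called. The call with MI-2-2 on 204917_s_at was lost without MI-2-2 replicate 1 or 2 or DMSO replicate 2 or 3 (0.24 to 0.33, adjusted p 0.0624 to 0.0896). The call with EPZ004777 on 204918_s_at was lost without combination replicate 1 or 3, any EPZ004777 array, MI-2-2 replicate 1 or DMSO replicate 2 or 3 (0.19 to 0.28, adjusted p 0.0522 to 0.148).

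In DMSO cells MLLT3 lay at different heights in the lines. Probe set 204917_s_at averaged 9.14 ± 0.07 in MOLM-13 (SD, n = 3), 6.62 in both SEM arrays, 4.42 ± 0.60 in REH (SD, n = 3) and 4.10 and 4.13 in RS4;11. Within its own arrays the probe set stood at percentile 75.9 in MOLM-13, 60.8 in SEM, 32.7 in REH and 26.8 in RS4;11, where percentiles do not depend on the higher array medians of MOLM-13. In RS4;11 and REH every DMSO array lay below the percentile 40 set for testing, on this probe set and on 204918_s_at, so the levels there are not above the cut-off and no size is given for the difference from SEM. In SEM, MLLT3 204917_s_at was not called for any treatment, with 6.66 and 6.77 with the combination, 6.78 and 6.64 with MI-2-2 and 6.94, 6.92 and 7.62 with EPZ004777, against 6.62 and 6.62 with DMSO.

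MLLT6, the cofactor also named AF17, was higher in MOLM-13 and lower in RS4;11 and SEM on 224784_at. This probe set gave 10.79, 10.85 and 10.71 in MOLM-13 with the combination, 10.73, 10.70 and 10.71 with MI-2-2 and 10.85, 10.81 and 10.81 with EPZ004777, against 10.57, 10.44 and 10.49 with DMSO. Every treated MOLM-13 array lay above every DMSO array. MLLT6 was higher there by 0.28 ± 0.05 with the combination, 0.21 ± 0.05 with MI-2-2 and 0.32 ± 0.05 with EPZ004777 (adjusted p = 0.00154, 0.0252 and 0.00208, limma). The call with MI-2-2 was lost without any of the 3 MI-2-2 arrays or DMSO replicate 2 or 3 (0.18 to 0.22, adjusted p 0.0510 to 0.0833). The other tested MLLT6 probe set, 225628_s_at, did not follow in MOLM-13, with 7.50, 7.51 and 7.67 with the combination, against 7.74, 7.48 and 7.65 with DMSO, a difference of -0.06 ± 0.09 that was not called (adjusted p = 0.617). It lay below EPZ004777 by -0.31 ± 0.09 (adjusted p = 0.0227), lost without combination replicate 1 or 2 or EPZ004777 replicate 2 or 3 (-0.31 to -0.26, adjusted p 0.0540 to 0.0898).

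In RS4;11, MLLT6 224784_at gave 10.73, 10.51 and 10.70 with the combination, against 10.97 and 11.03 with DMSO. It was lower there by -0.35 ± 0.09 (adjusted p = 0.0240, limma), a call lost without combination replicate 2 or either DMSO array (-0.38 to -0.28, adjusted p 0.0642 to 0.141). In SEM it gave 10.51 and 10.59 with the combination, against 10.90 and 10.87 with DMSO, a difference of -0.33 ± 0.10 (adjusted p = 0.0419). That call was lost without any 1 array of the combination, MI-2-2 or DMSO groups or EPZ004777 replicate 3 (-0.37 to -0.29, adjusted p 0.0528 to 0.179). MLLT6 225628_s_at fell in SEM by -0.42 ± 0.09 with the combination and by -0.37 ± 0.09 with MI-2-2 (adjusted p = 0.0126 and 0.0360). Under the replicate block its MI-2-2 call was lost. The combination call was lost without combination replicate 1 or either DMSO array (-0.42 to -0.35, adjusted p 0.0622 to 0.0799), and the MI-2-2 call without either MI-2-2 or DMSO array or EPZ004777 replicate 3 (-0.41 to -0.32, adjusted p 0.0539 to 0.161). With the actin 3′ minus 5′ signal as a covariate the SEM differences of MLLT6 were above 0 and not called.

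MLLT1, the second YEATS domain gene, also named ENL, was not called against DMSO on any probe set in a human line. On 224993_at its differences lay between -0.17 and 0.17 over the 3 treatments in RS4;11, at -0.10 to -0.01 in SEM, -0.16 to -0.04 in REH and 0.09 to 0.13 in MOLM-13. In DMSO cells MLLT1 224993_at was lower in SEM, with 7.35 and 7.64, than in REH, with 8.26, 8.42 and 9.05, by -1.08 ± 0.22 (adjusted p = 0.00354, limma), and this held under all 12 alternatives. MLLT1 214477_at, below the percentile 40 cut-off in both lines, was not called in that comparison (adjusted p = 0.317, limma). Mllt1 fell on both probe sets in the mouse combination. Mllt1 1421060_at gave 5.59, 5.07 and 5.24 with the combination, 6.28, 6.28 and 6.39 with MI-2-2 and 6.20, 5.92 and 6.10 with EPZ004777, against 6.12, 6.17 and 6.21 with DMSO. All combination arrays lay below the others, and 1 of the 3 was above the percentile 40 cut-off. The difference from DMSO was -0.87 ± 0.13 on 1421060_at and -0.64 ± 0.14 on 1434805_at (adjusted p = 0.000298 and 0.00231, limma). With replicates 2 and 3 left out it was -0.57 and -0.86.

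AFF1, the scaffold of the super elongation complex and the fusion partner in RS4;11 and SEM, fell on 215451_s_at in all 4 human lines with the combination. In SEM this probe set gave 7.36 and 7.38 with the combination, 7.46 and 7.68 with MI-2-2 and 6.90, 6.83 and 6.58 with EPZ004777, against 8.26 and 8.40 with DMSO. The EPZ004777 arrays were the lowest, and the combination arrays lay between them and DMSO. The SEM differences were -0.96 ± 0.13 with the combination, -0.76 ± 0.13 with MI-2-2 and -1.56 ± 0.12 with EPZ004777 (adjusted p = 0.00154, 0.00897 and 0.000687, limma). The combination lay above EPZ004777 by 0.60 ± 0.12 (adjusted p = 0.0102), a call lost without either combination array (0.61 and 0.59, adjusted p = 0.0583 and 0.0679), under the replicate block (adjusted p = 0.0558) and with the actin 3′ minus 5′ covariate (0.92, adjusted p = 0.733). The call of EPZ004777 against DMSO held under all 13 alternatives, among them that covariate, under which the combination and MI-2-2 differences were -0.59 and -0.38 and not called (adjusted p = 0.941 and 0.975). Under the replicate block the MI-2-2 call was lost too. The MI-2-2 call was lost without MI-2-2 replicate 1 or DMSO replicate 3 (-0.65 and -0.69, adjusted p = 0.0590 and 0.0658).

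In RS4;11, AFF1 215451_s_at gave 8.37, 8.24 and 8.83 with the combination, 8.31, 9.23 and 8.96 with MI-2-2 and 8.41, 8.68 and 8.62 with EPZ004777, against 9.23 and 9.31 with DMSO. The combination and EPZ004777 arrays lay below both DMSO arrays. The combination differed from DMSO by -0.79 ± 0.24 (adjusted p = 0.0422, limma), and the -0.70 with EPZ004777 and -0.44 with MI-2-2 were not called. The other AFF1 probe sets in RS4;11 fell too with the combination, by -0.55 ± 0.17 on 211826_s_at and by -0.22 ± 0.06 on 201924_at (adjusted p = 0.0403 and 0.0310). All 3 calls were lost without combination replicate 1 or 2, EPZ004777 replicate 2 or DMSO replicate 3. The call on 215451_s_at was lost also without EPZ004777 replicate 3, MI-2-2 replicate 3 or DMSO replicate 2, that on 211826_s_at without EPZ004777 replicate 3 or MI-2-2 replicate 3, and that on 201924_at without DMSO replicate 2. Without those arrays the differences were -0.84 to -0.67, -0.55 to -0.34 and -0.25 to -0.19, with adjusted p from 0.0517 to 0.308. On 201924_at all 9 treated arrays, at 12.94 to 13.13, lay below the DMSO arrays at 13.15 and 13.21.

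In REH, which has no AFF1 fusion, AFF1 215451_s_at gave 7.54, 7.34 and 7.74 with the combination, 7.75, 8.30 and 7.84 with MI-2-2 and 8.10, 8.14 and 7.92 with EPZ004777, against 8.30, 8.30 and 8.67 with DMSO. The combination arrays lay below every DMSO array. The difference of -0.89 ± 0.16 (adjusted p = 0.00982, limma) was the only call among the 10 genes in REH. It was lost without combination replicate 2 (-0.79, adjusted p = 0.0578) and with DMSO replicates 1 and 3, which had the highest actin 3′ minus 5′ signal, left out (-0.76, adjusted p = 0.107). In MOLM-13, AFF1 215451_s_at gave 7.78, 7.90 and 7.64 with the combination, against 8.06, 8.17 and 8.10 with DMSO, and the difference of -0.34 ± 0.09 (adjusted p = 0.00821) held under all 15 alternatives. On this probe set the effect averaged over both fusion lines, less that in REH, was 0.01 ± 0.24 with the combination (adjusted p = 0.988), -0.14 ± 0.24 with MI-2-2 (adjusted p = 0.761) and -0.76 ± 0.24 with EPZ004777 (adjusted p = 0.0776). In DMSO cells AFF1 215451_s_at was higher in RS4;11 than in SEM by 0.94 ± 0.14 and than in REH by 0.85 ± 0.13 (adjusted p = 0.00149 and 0.000741), and both held under all 12 alternatives. The brighter AFF1 201924_at gave 0.27 and 0.22 in these comparisons, neither called (adjusted p = 0.125 and 0.0964, limma). AFF1 211826_s_at gave 0.49, not called, against SEM and 0.81, called, against REH (adjusted p = 0.127 and 0.00540).

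**Figure D4:**
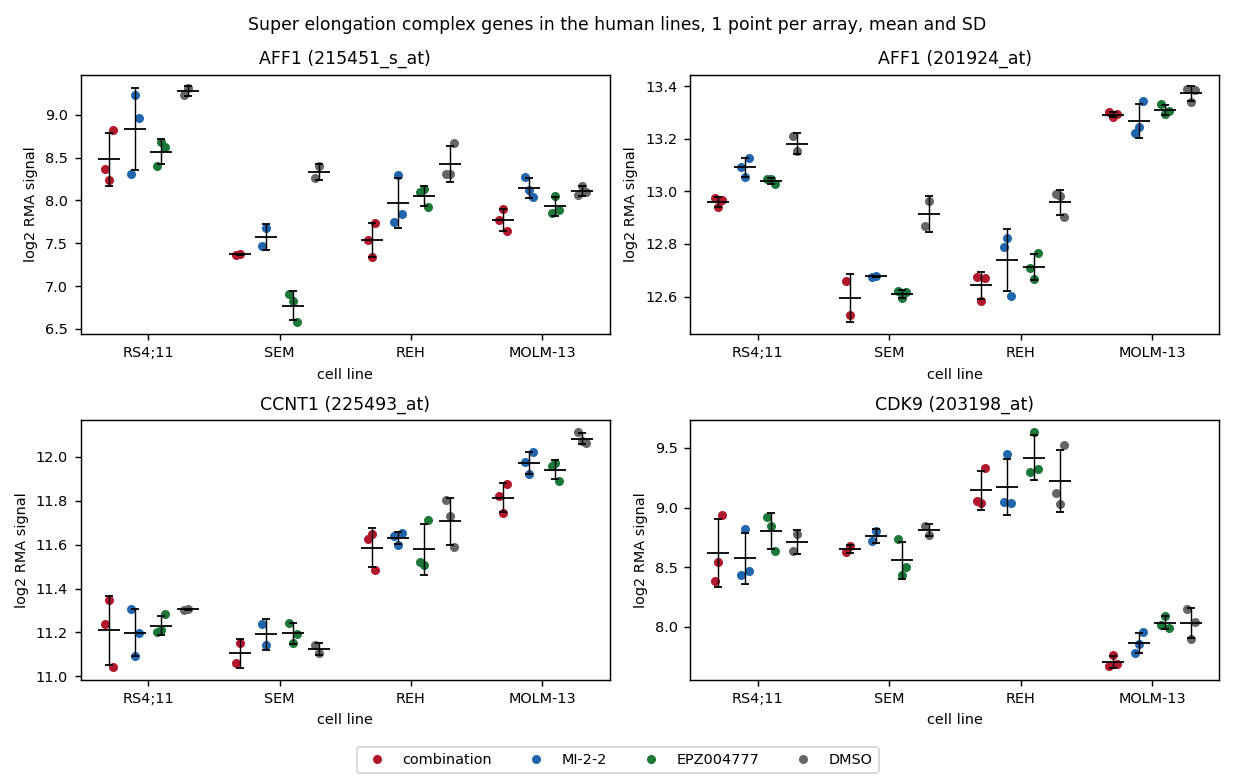
Log2 RMA signal (vertical axes) of AFF1, CCNT1 and CDK9 probe sets by cell line (horizontal axes), 1 point per array, with the mean and SD of each group. Within each line the groups run from the combination to DMSO. AFF1 215451_s_at in SEM lies at 6.58 to 6.90 with EPZ004777 and at 8.26 and 8.40 with DMSO.

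In SEM, AFF1 201924_at gave 12.66 and 12.53 with the combination, against 12.87 and 12.96 with DMSO, a difference of -0.32 ± 0.08 (adjusted p = 0.0242, limma) that was lost without combination replicate 3 or either DMSO array (-0.37 to -0.26, adjusted p 0.0627 to 0.135). In the mouse cells 2 of 3 tested Aff1 probe sets were called, both higher, with the combination (62.4% of all called, 28.2% of all higher). Aff1 1418135_at gave 13.31, 13.37 and 13.35 with the combination, 13.03, 13.04 and 13.03 with MI-2-2 and 12.96, 13.01 and 12.99 with EPZ004777, against 12.96, 12.93 and 12.91 with DMSO. The combination arrays lay above all others, at 0.41 ± 0.07 over DMSO (adjusted p = 0.000860), and the rise was 0.38 with replicates 2 and 3 left out. Aff1 1425640_at rose by 0.79 ± 0.24, on arrays of 8.41, 9.01 and 9.53 with the combination, against 8.18, 8.21 and 8.19 with DMSO. With replicates 2 and 3 left out this rise was only 0.22. The third, Aff1 1425641_at, gave 7.05, 6.27 and 5.57 with the combination, against 6.98, 6.67 and 6.51 with DMSO, and the difference of -0.42 ± 0.40 was not called (adjusted p = 0.379).

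AFF4, the second scaffold, had 8 human probe sets that did not move as one. In RS4;11, AFF4 232865_at gave 7.43, 7.08 and 7.06 with the combination, 6.89, 7.22 and 7.18 with MI-2-2 and 6.91, 7.11 and 7.29 with EPZ004777, against 6.34 and 6.74 with DMSO. All treated arrays lay above both DMSO arrays, and the combination was higher by 0.65 ± 0.17 (adjusted p = 0.0209, limma), a call lost without combination replicate 1 (0.53, adjusted p = 0.0606) or DMSO replicate 2 (0.45, adjusted p = 0.181). AFF4 232864_s_at rose there by 0.35 ± 0.11 (adjusted p = 0.0471), lost without combination replicate 1 or 3, EPZ004777 replicate 2, MI-2-2 replicate 2 or 3 or either DMSO array (0.30 to 0.38, adjusted p 0.0534 to 0.204). On 225229_at AFF4 in RS4;11 was not called, with 11.16, 11.05 and 11.03 with the combination, against 11.00 and 10.96 with DMSO.

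In SEM 2 other AFF4 probe sets fell, of which the EPZ004777 call on 1555436_a_at was lost under the replicate block. AFF4 1555436_a_at gave 6.41, 6.68 and 6.35 with EPZ004777, against 7.18 and 6.94 with DMSO, a difference of -0.58 ± 0.13 (adjusted p = 0.0416, limma) that held without EPZ004777 replicate 2 but not without any other array (-0.70 to -0.46, adjusted p 0.0528 to 0.251). AFF4 239439_at gave 5.07 and 4.74 with the combination, of which 1 array was above the percentile 40 cut-off, against 5.40 and 5.39 with DMSO, a difference of -0.49 ± 0.11 (adjusted p = 0.0182), lost without combination replicate 3 or either DMSO array (-0.50 to -0.33, adjusted p 0.0753 to 0.0853). AFF4 was not called against DMSO in REH, MOLM-13 or the mouse cells. The combination effect on AFF4 232865_at averaged 0.40 over RS4;11 and SEM and was -0.44 in REH, a difference between lines of 0.84 ± 0.25 (adjusted p = 0.0218), and on 219199_at the values were 0.16, -0.36 and 0.52 ± 0.16 (adjusted p = 0.0273). AFF4 219199_at was dim, above the percentile 40 cut-off on 2 of 9 combination and DMSO arrays of RS4;11 and SEM and on 2 of 6 of REH, and it was not tested in SEM by itself. AFF4 232865_at and 219199_at were the 2 of 33 probe sets called in that comparison, in which 17.6% of all probe sets were called. For MI-2-2 and EPZ004777 0 of 33 were called (11.1% and 3.45% of all, limma, with 8 and 5 at an unadjusted p under 0.05). The MI-2-2 count was 1 without SEM MI-2-2 replicate 1, REH MI-2-2 replicate 1 or REH DMSO replicate 1 or 3, and 4 without REH DMSO replicate 2. The EPZ004777 count was 1 without RS4;11 MI-2-2 replicate 1 or REH DMSO replicate 1 or 3, and the combination count was 4 without REH DMSO replicate 2. The call on 232865_at was lost without RS4;11 DMSO replicate 2, SEM combination replicate 1, SEM DMSO replicate 2, REH combination replicate 2 or REH DMSO replicate 1 (0.57 to 0.79, adjusted p 0.0527 to 0.0918). That on 219199_at was lost without RS4;11 DMSO replicate 2, SEM combination replicate 1, SEM DMSO replicate 2, REH combination replicate 1 or 2 or REH DMSO replicate 2 (0.44 to 0.49, adjusted p 0.0535 to 0.0837). With REH DMSO replicates 1 and 3 left out neither was called (0.59 and 0.62, adjusted p = 0.169 and 0.0511).

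ELL, the elongation factor, had 1 human call, on 204095_s_at in SEM with the combination. It gave 5.46 and 5.38 there, against 5.75 and 5.82 with DMSO, a difference of -0.36 ± 0.11 (adjusted p = 0.0464, limma) lost without either array of the combination or DMSO or EPZ004777 replicate 2 (-0.40 to -0.32, adjusted p 0.0615 to 0.180). In the mouse cells Ell rose with the combination. Ell 1460643_at gave 10.53, 10.74 and 11.03 with the combination, 9.57, 9.81 and 9.67 with MI-2-2 and 9.59, 9.60 and 9.82 with EPZ004777, against 9.68, 9.88 and 9.75 with DMSO. The combination arrays lay above all others, by 0.99 ± 0.14 over DMSO (adjusted p = 0.000145), and the rise was 0.75 with replicates 2 and 3 left out. Ell 1441928_x_at rose by 0.50 ± 0.15 (adjusted p = 0.0168), lost without combination replicate 2 or 3 or DMSO replicate 1 (0.40 to 0.43, adjusted p 0.0605 to 0.0630). With replicates 2 and 3 left out this rise was only 0.15.

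CDK9, the kinase of P-TEFb, was called lower once in SEM and once in MOLM-13. Its SEM call was lost under the replicate block. In SEM, CDK9 228901_at gave 6.94, 6.89 and 6.91 with EPZ004777, against 7.53 and 7.29 with DMSO, a difference of -0.50 ± 0.09 (adjusted p = 0.0215, limma) lost when EPZ004777 replicate 2 or 3 or DMSO replicate 2 was left out (-0.50 to -0.38, adjusted p 0.0592 to 0.153). In MOLM-13, CDK9 203198_at gave 7.67, 7.76 and 7.69 with the combination, 7.78, 7.86 and 7.95 with MI-2-2 and 8.02, 8.09 and 7.99 with EPZ004777, against 8.15, 7.90 and 8.04 with DMSO. The combination arrays were the lowest there, by -0.32 ± 0.07 relative to DMSO (adjusted p = 0.00412) and by -0.33 ± 0.07 relative to EPZ004777 (adjusted p = 0.00723), and the call against DMSO held under all 15 alternatives. The other 2 CDK9 probe sets also lay below 0 in MOLM-13 with the combination but were not called.

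The 2 Cdk9 probe sets went in opposite directions in mouse cells with the combination. Cdk9 1417269_at gave 11.88, 12.63 and 12.67 with the combination, against 11.43, 11.60 and 11.57 with DMSO, a rise of 0.86 ± 0.19 (adjusted p = 0.00247, limma). Cdk9 1457240_at gave 9.07, 8.48 and 8.36 with the combination, against 9.36, 9.26 and 9.26 with DMSO, a fall of -0.65 ± 0.16 (adjusted p = 0.00473). On both, replicate 1 was the closest to DMSO. With replicates 2 and 3 left out the values were 0.35 and -0.22.

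CCNT1, the cyclin of P-TEFb, fell in MOLM-13 with the combination on both of its probe sets. CCNT1 225493_at gave 11.82, 11.74 and 11.87 with the combination, 11.97, 11.92 and 12.02 with MI-2-2 and 11.96, 11.97 and 11.89 with EPZ004777, against 12.11, 12.07 and 12.06 with DMSO. Every treated array lay below every DMSO array, and the combination differed by -0.27 ± 0.05 (adjusted p = 0.00201, limma), which held under all 15 alternatives. CCNT1 206967_at gave 6.75, 6.58 and 6.12 with the combination, against 7.07, 7.48 and 7.16 with DMSO, a difference of -0.76 ± 0.22 (adjusted p = 0.0187) lost without combination replicate 3 (-0.57, adjusted p = 0.0764) or DMSO replicate 2 (-0.64, adjusted p = 0.0702).

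In SEM, CCNT1 206967_at gave 6.06 and 6.13 with the combination, 6.33 and 6.24 with MI-2-2 and 6.26, 6.25 and 6.14 with EPZ004777, against 6.64 and 6.51 with DMSO. No treated array reached the DMSO arrays. The combination differed by -0.48 ± 0.09 (adjusted p = 0.00694, limma), lost without DMSO replicate 2 (-0.41, adjusted p = 0.0536). EPZ004777 differed by -0.36 ± 0.08 (adjusted p = 0.0425), a call that held without EPZ004777 replicate 1 but not without any other array (-0.42 to -0.29, adjusted p 0.0610 to 0.259). Under the replicate block the EPZ004777 call was lost too. CCNT1 225493_at was not called in SEM. In DMSO cells it was lower in SEM, with 11.14 and 11.11, than in REH, with 11.80, 11.73 and 11.59, by -0.58 ± 0.10 (adjusted p = 0.00134), under all 12 alternatives. CCNT1 206967_at went the other way, with SEM above REH by 0.49, which was not called (adjusted p = 0.224, limma). Mouse Ccnt1 1456477_at gave 11.53, 10.46 and 10.16 with the combination, against 11.88, 11.58 and 11.62 with DMSO, a fall of -0.98 ± 0.28 (adjusted p = 0.0120). This fall was only -0.16 with replicates 2 and 3 left out.

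The remaining mouse genes called in the combination were Mllt3 and Mllt10. Mllt10 1442070_at gave 5.20, 8.92 and 8.41 with the combination, against 5.49, 5.10 and 5.20 with DMSO, so that replicate 1 lay within the DMSO range. It was above the percentile 40 cut-off on 2 of 3 combination arrays and 1 of 3 DMSO arrays. Its difference of 2.25 ± 0.75 (adjusted p = 0.0235, limma) was lost without combination replicate 2 or 3 or DMSO replicate 2 or 3 (1.55 to 2.22, adjusted p 0.0578 to 0.0926) and was -0.06 with both of these combination replicates left out. Mllt10 1420869_at gave 6.37, 5.54 and 5.57 with the combination, against 6.68, 6.65 and 6.64 with DMSO, a fall of -0.83 ± 0.20 (adjusted p = 0.00455). This fall was only -0.29 with the 2 replicates left out. The brightest Mllt10 probe set, 1420870_at, was not called against DMSO. With the combination it lay above EPZ004777 by 0.64 and above MI-2-2 by 0.55, both calls lost without combination replicate 2 or 3. Mllt3 1431890_a_at gave 5.64, 3.72 and 3.83 with the combination, against 6.37, 5.46 and 5.86 with DMSO, a fall of -1.50 ± 0.49 (adjusted p = 0.0211), with 1 of 3 combination arrays above the cut-off. It was lost without combination replicate 2 or 3 or DMSO replicate 1 (-1.26 to -1.16, adjusted p 0.0774 to 0.0825) and was -0.25 with combination replicates 2 and 3 left out. The other Mllt3 probe sets, 1429205_at and 1453622_s_at, were not called against DMSO. The part of the Gapdh 3′ minus 5′ signal in these values was not tested beyond leaving the arrays out and using the actin signal as a covariate.

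**Figure D5:**
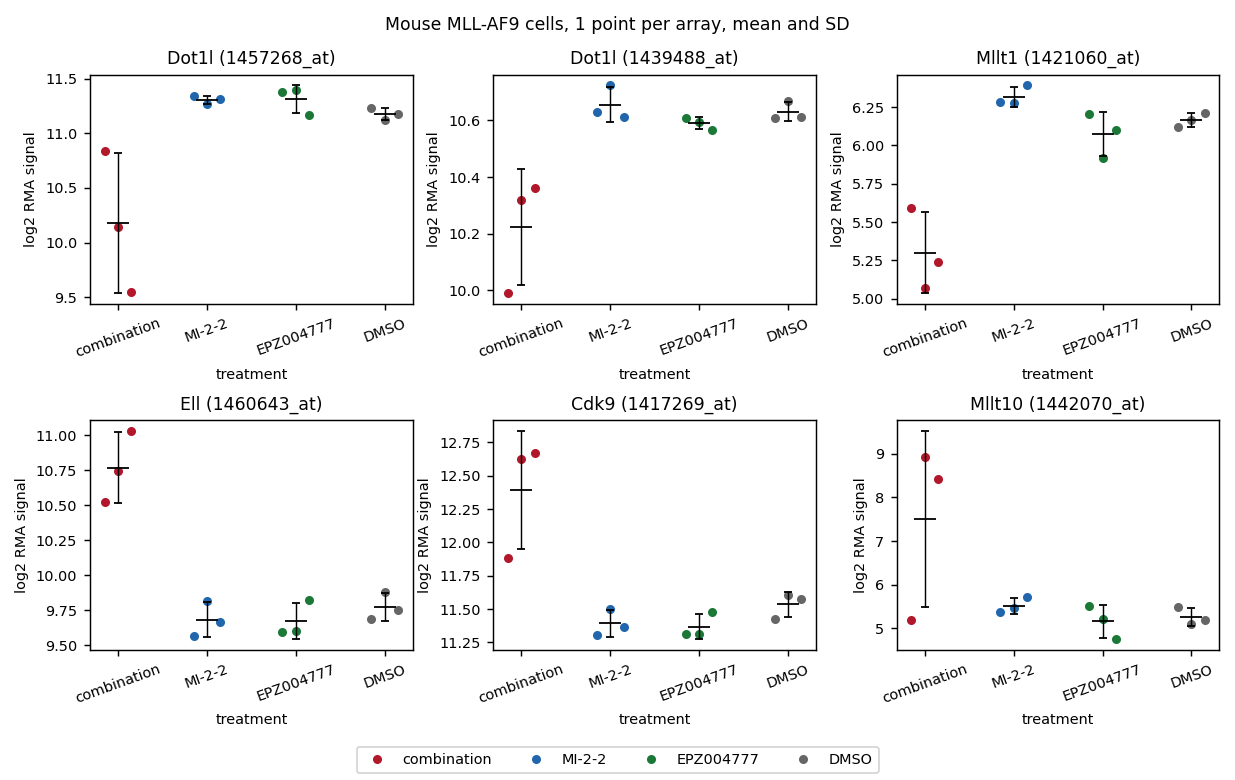
Log2 RMA signal (vertical axes) of 6 probe sets in mouse MLL-AF9 cells by treatment (horizontal axes), 1 point per array (replicates 1, 2 and 3 run left to right), with the mean and SD of each group. Combination replicate 1 lies apart from the other treatments for Dot1l, Mllt1, Ell and Cdk9, but within the DMSO range for Mllt10 1442070_at.

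In DMSO cells the levels of some of the 10 genes differed between the lymphoid lines. For RS4;11 minus SEM 3 of 35 probe sets were called (17.2% of all), for RS4;11 minus REH 8 of 35 (37.9% of all) and for SEM minus REH 7 of 35 (40.1% of all), and these shares were not tested against each other. Among them 2 of 3, 1 of 8 and 3 of 7 were below the percentile 40 cut-off on every DMSO array of at least 1 of the lines compared. The count was 5 for RS4;11 minus SEM without REH DMSO replicate 3, whose array shares the estimate of spread, 2 for RS4;11 minus REH without RS4;11 DMSO replicate 2 or 3, and 4 for SEM minus REH without SEM DMSO replicate 2. DOT1L 226201_at averaged 8.51 ± 0.38 in REH (SD, n = 3), 8.48 ± 0.05 in RS4;11 and 8.29 ± 0.02 in SEM (SD, n = 2 each), and no neighbours in this order were called different. In MOLM-13 it averaged 9.22 ± 0.11 (SD, n = 3), on arrays with higher medians. Within its own arrays the probe set stood at percentile 76.5 in MOLM-13, 76.3 in RS4;11, 76.0 in REH and 74.7 in SEM. Against MOLM-13 28 of 35 probe sets were called for RS4;11 (75.2% of all), 27 for SEM (75.8% of all) and 28 for REH (79.8% of all), and the medians of all probe sets lay -0.65, -0.66 and -0.65 from MOLM-13, so single genes were not compared with that line. Over the 16 human group means, the genes whose brightest probe set followed DOT1L 226201_at most closely among 15909 genes were FBXL6 (Pearson r = 0.976), ANAPC5 (0.969) and ZNF526 (0.966). The 16 means share the step in array median between MOLM-13 and the other lines, so these values are a description.

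The related genes of transcript elongation were described as 4 lists, each gene on its brightest probe set. Of the relatives of the super elongation complex and P-TEFb, 3 rose and 1 fell of 9 tested in RS4;11 with the combination, 3 rose and 0 fell of 9 in SEM, 1 rose and 0 fell of 10 in REH, and 3 rose and 3 fell of 9 in MOLM-13. The list's median difference was 0.08, -0.01, 0.19 and -0.10 in these lines, beside -0.03, -0.03, -0.01 and 0.00 over all probe sets tested. In the mouse combination 2 rose and 3 fell of 9, with a median of 0.02. Over all probe sets 20.2%, 23.5%, 4.1%, 42% and 62.4% were called with the combination in RS4;11, SEM, REH, MOLM-13 and the mouse cells. AFF3, a scaffold related to AFF1, was higher with the combination in all 4 human lines, by 0.75 ± 0.09 in RS4;11, 1.18 ± 0.08 in SEM, 0.62 ± 0.14 in REH and 0.42 ± 0.06 in MOLM-13 (adjusted p = 0.000261, 7.42e-05, 0.0270 and 0.000160, limma). The MOLM-13 value, outside the rule for named genes, was added after the values were seen. The REH call was lost without any combination array or DMSO replicate 1 (0.59 to 0.66, adjusted p 0.0604 to 0.111) and with DMSO replicates 1 and 3 left out (0.32). In SEM, AFF3 rose by 0.94 ± 0.08 with MI-2-2 and 0.60 ± 0.08 with EPZ004777, the second lost without DMSO replicate 2 (0.56, adjusted p = 0.0675), and in MOLM-13 by 0.36 ± 0.06 with EPZ004777. With the actin 3′ minus 5′ covariate the SEM values of AFF3 were 1.11, 0.87 and 0.59 with the combination, MI-2-2 and EPZ004777, and not called (adjusted p = 0.722, 0.898 and 0.0569). EAF2, a partner of ELL, rose in SEM by 1.27 ± 0.09 with the combination, 1.08 ± 0.09 with MI-2-2 and 0.42 ± 0.08 with EPZ004777, and in RS4;11 by 0.44 ± 0.08 with the combination. Under the same covariate the EAF2 values in SEM were 1.73, 1.56 and 0.48, and not called (adjusted p = 0.501, 0.791 and 0.0921). The SEM call with EPZ004777 was lost without EPZ004777 replicate 3 or either DMSO array (0.38 to 0.45, adjusted p 0.0813 to 0.145). EAF2 in RS4;11 with EPZ004777 gave 0.32 ± 0.08 (adjusted p = 0.0465), which held without combination replicate 1 but not without any other array (0.26 to 0.37, adjusted p 0.0530 to 0.291). In MOLM-13 it rose by 0.29 ± 0.05 with MI-2-2 and 0.31 ± 0.05 with EPZ004777, and ELL2, a relative of ELL, by 0.52 ± 0.07 with the combination. CDK13, a kinase related to CDK9, fell in MOLM-13 with EPZ004777 by -0.27 ± 0.07, lost when EPZ004777 replicate 2 or 3 or DMSO replicate 1 or 3 was left out (-0.26 to -0.24, adjusted p 0.0515 to 0.0621). In the mouse combination Aff2, a further scaffold gene, rose by 3.47 ± 0.52, and by 2.02 with replicates 2 and 3 left out. Ccnk, a cyclin, fell by -1.18 ± 0.37, but by -0.06 with the 2 replicates left out, and was not called without combination replicate 2 or 3 or DMSO replicate 1 (-1.13 to -0.82, adjusted p 0.0504 to 0.0677).

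HEXIM1, which encodes the protein that holds P-TEFb inactive on the 7SK RNA, rose with the combination in RS4;11, SEM and MOLM-13. With MI-2-2 it rose in SEM and MOLM-13. It was higher by 1.18 ± 0.09 in SEM, 0.90 ± 0.08 in MOLM-13 and 0.57 ± 0.09 in RS4;11 with the combination (adjusted p = 9.52e-05, 7.91e-06 and 0.00114, limma), and by 0.90 ± 0.09 in SEM and 0.65 ± 0.08 in MOLM-13 with MI-2-2. These calls held when any 1 array was left out. With the actin 3′ minus 5′ covariate the SEM rises were 1.63 and 1.37 and not called. HEXIM1 was not called with MI-2-2 in RS4;11, nor with any treatment in REH or the mouse cells. Its brightest probe set was 202814_s_at in RS4;11 and SEM and 202815_s_at in MOLM-13. HEXIM2, its paralog, fell in SEM by -0.70 ± 0.14 with the combination and -0.76 ± 0.14 with MI-2-2 but rose in MOLM-13 by 0.43 ± 0.10 with the combination. The SEM call with the combination was lost without combination replicate 3 (-0.51, adjusted p = 0.0554) or DMSO replicate 2 (-0.65, adjusted p = 0.0669), and that with MI-2-2 without either MI-2-2 or DMSO array (-0.80 to -0.71, adjusted p 0.0646 to 0.0875). Of the 4 genes of the 7SK inhibitory complex, 1 rose and 0 fell in RS4;11 with the combination, 1 rose and 1 fell in SEM, 0 were called in REH, and 3 rose and 0 fell in MOLM-13, where the list's median was 0.35 beside 0.00 over all probe sets. In the mouse combination 0 rose and 2 fell of these 4. The shares called over all probe sets are those given above for the relatives.

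Of the pausing factors, 0 rose and 2 fell of 5 tested in RS4;11 with the combination, 0 and 1 in SEM, 0 and 0 in REH and 0 and 2 in MOLM-13, and 1 rose and 1 fell of 4 in the mouse cells. Over all probe sets 20.2%, 23.5%, 4.1%, 42% and 62.4% were called in these models. The list's medians were -0.244, -0.155, -0.187, -0.17 and -0.03, beside -0.03, -0.03, -0.01, 0.00 and -0.09 over all probe sets. SUPT6H, a histone chaperone that travels with the polymerase, fell by -0.66 ± 0.16 in RS4;11, lost without either DMSO array (-0.73 without replicate 2 and -0.58 without replicate 3, adjusted p = 0.0546 and 0.115). Of the PAF1 complex and the ligases that ubiquitinate histone H2B, a mark that stimulates DOT1L, 1 rose of 8 in RS4;11 with the combination, 0 were called in SEM and REH, 2 rose and 1 fell in MOLM-13, and 2 rose and 4 fell in the mouse cells. These counts stand beside the same shares over all probe sets. The medians of this list were 0.04, 0.01, 0.06, 0.02 and -0.47. RNF20, such a ligase, rose in MOLM-13 by 0.45 ± 0.07 with the combination and 0.35 ± 0.07 with MI-2-2, and PAF1 by 0.32 ± 0.07 with EPZ004777. In the mouse combination Cdc73 fell by -1.59 ± 0.39 and Ctr9 by -1.16 ± 0.13, both subunits of the PAF1 complex. With replicates 2 and 3 left out the falls were -0.39 and -0.88.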

How the data were processed

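RNA of 4 human lines and 1 mouse cell model was measured on 56 arrays. The authors deposited log2 values per probe set for each platform. Per the submitters' processing notes these were made with RMA (affy, R 3.0.2), and which arrays were normalized together is not given in the sources used here. Groups and biological replicate numbers came from the sample titles. Probe sets were named from the platform annotation, and 41097 human and 34958 mouse probe sets had 1 symbol.

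From these values limma 3.58.1 (R 4.3.3) was fitted per cell model to all probe sets, controls left out, that at least 2 arrays put higher than their own percentile 40, with 5 contrasts per model and Benjamini-Hochberg adjustment over all probe sets tested. DMSO levels were compared over 10 DMSO arrays, and lines over 32 arrays of RS4;11, SEM and REH. The code was tested on simulated data. No filter, quantile normalization again, the replicate number as a block, leaving out each array and an actin 3′ minus 5′ covariate in SEM were tried. The same covariate in REH and the mouse cells, and leaving out REH DMSO replicates 1 and 3 or mouse combination replicates 2 and 3, were chosen after seeing the data. Correlations of the deviations of arrays with the same number lay between -0.51 and 0.49, so the numbers were not treated as pairs. The genes and lists were chosen with earlier results of these data known. Every probe set of the 10 genes was followed. Up to 4 called genes of the related lists were named per model and treatment, the largest changes first. The number of arrays limits the precision. Sequences and symbols were read with Python 3.11.15 and pandas 2.3.3, and plots made with matplotlib 3.10.9.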

Additional observations from a re-analysis of the deposited data

Results flagged for a closer look

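The combination effect on AFF4 differed between the KMT2A-AFF1 lines and REH on 2 probe sets in the test of the difference itself. It was 0.84 ± 0.25 for AFF4 232865_at, with 0.40 averaged over RS4;11 and SEM against -0.44 in REH, and 0.52 ± 0.16 for AFF4 219199_at, with 0.16 against -0.36. The second probe set was dim, above the percentile 40 cut-off on 2 of 9 arrays of RS4;11 and SEM and 2 of 6 of REH, and it was not tested in SEM by itself. These were 2 of 33 probe sets of the 10 genes (adjusted p = 0.0218 and 0.0273, limma), beside 17.6% of all probe sets called. Both calls were lost when any of several single arrays was left out. No other AFF4 probe set was called in this comparison. AFF4 225229_at gave 0.11 in RS4;11 and -0.07 in SEM, against 0.00 in REH.

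MLLT6 224784_at moved in opposite directions with the combination, so that every array lay below DMSO in RS4;11 (-0.35) and SEM (-0.33) and every array lay above DMSO in MOLM-13 (0.28). On MLLT6 225628_s_at the MOLM-13 value was -0.06. This difference was not tested, and dose, time and array medians also differ between MOLM-13 and the other lines.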

How the results depend on the processing

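Of 34 counts of called probe sets, 480 alternative values stayed within 1.5 times the reported count and 80 did not. Of 200 single results, 91 kept their call and direction under all alternatives run and 7 changed sign. Without the filter the count was 2 for the RS4;11 combination, SEM EPZ004777 and MOLM-13 MI-2-2. Quantile normalization again gave 1 for RS4;11 MI-2-2, and for the line difference 1 with MI-2-2 and 4 with the combination. With the replicate block the count was 3 for the RS4;11 combination, and in SEM 4 for the combination, 0 for MI-2-2 and 1 for EPZ004777, and 1 for the line difference with the combination. No paired reading of these values is made, since the numbers only name the arrays: correlations over 0.1 were found for 3 of 15 same-numbered pairs in RS4;11, 2 of 10 in SEM, 5 of 18 in REH, 4 of 18 in MOLM-13 and 5 of 18 in the mouse cells.

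With the actin 3′ minus 5′ covariate the count was 0 for the SEM combination, for SEM MI-2-2, for the SEM combination minus EPZ004777 and for the REH combination, 1 for SEM EPZ004777, 8 for the mouse combination minus EPZ004777 and 9 for the mouse combination minus MI-2-2. In SEM, MLLT6 225628_s_at then gave 0.18 with MI-2-2 and 0.11 with the combination, and with the combination MLLT6 224784_at gave 0.10 and SUPT6H 208830_s_at 0.23. Without REH DMSO replicates 1 and 3 the REH combination and the line difference with the combination had 0 calls. Leaving out mouse combination replicates 2 and 3 left 1 combination array, so no counts are given for that setting. Mllt10 1442070_at then gave -0.058 against DMSO and -0.31 against MI-2-2, and Mllt10 1420870_at gave -0.010 against MI-2-2. The cause of these changes was not tested.

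Leaving out 1 array gave 1 to 7 calls for the RS4;11 combination, 0 to 2 for MI-2-2, 0 to 1 for EPZ004777 and 0 to 1 for the combination minus MI-2-2. In SEM it gave 3 to 10 for the combination, 0 to 4 for MI-2-2, 1 to 5 for EPZ004777 and 1 to 3 for the combination minus EPZ004777. It gave 0 to 2 for the REH combination, 0 to 5 for MOLM-13 MI-2-2, 5 to 9 for the MOLM-13 combination minus EPZ004777 and 0 to 1 for mouse MI-2-2. For DMSO levels the ranges were 3 to 5 for RS4;11 minus SEM, 2 to 11 for RS4;11 minus REH and 4 to 9 for SEM minus REH. For the line difference they were 0 to 4 with the combination, 0 to 4 with MI-2-2 and 0 to 1 with EPZ004777. Groups of 2 or 3 arrays and signals near the filter limit what could be called.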

Other observations

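The paralogs AFF1, on 215451_s_at, and AFF3 stood on opposite sides of DMSO in the combination. AFF3 was read on its brightest probe set, but 215451_s_at is not the brightest of AFF1. On the brightest, 201924_at, AFF1 gave -0.22 in RS4;11, -0.32 in SEM and -0.32 in REH. It was not called there in REH or MOLM-13. AFF1 215451_s_at gave -0.79 in RS4;11, -0.96 in SEM, -0.89 in REH and -0.34 in MOLM-13, and AFF3 gave 0.75, 1.18, 0.62 and 0.42 in the same lines, each of them called in limma. With the actin 3′ minus 5′ covariate the SEM values were -0.59 for AFF1 and 1.11 for AFF3 and not called (adjusted p = 0.941 and 0.722). The RS4;11 call of AFF1 was lost under 9 of 14 alternatives and the REH call of AFF3 under 7 of 17. In DMSO cells CDK9 203198_at was lower in RS4;11 than in REH by -0.52 ± 0.16 and MLLT10 216503_s_at was higher in SEM than in REH by 0.76 ± 0.18 (adjusted p = 0.0263 and 0.00848, limma). No other probe set of either gene was called in these comparisons. CDK9 228901_at gave 0.002 and 236023_at -0.17. The other MLLT10 probe sets lay between -0.09 on 225992_at, the brightest, and 0.47 on 230122_at.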
